A study of Homo sapiens with 24 samples.

Results

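Of the 27200 Ensembl gene identifiers with an m6A peak in these data, 177 carried 8 or more peaks in each of 4 populations of human pancreatic differentiation, or 1.73% of the 10245 identifiers with at least 1 peak in all 4. The peak numbers themselves chose these 177 members, so their numbers in the 4 stages are given as a description. Gene size, peak position, the identity of the genes and the lists of a separate experiment played no part in the choice. The members held large chromatin regulators, giant cytoskeletal linkers, nuclear scaffolds, mitotic proteins, cadherins and zinc finger factors, together with short non-coding RNA genes and gene clusters that were counted through the peaks of a neighbour. Counting each peak only for the gene whose exons it lay on left 96 genes with 8 or more peaks of their own in each stage, and these are called carrier genes here. All deposited peaks were used, and these reach an adjusted p of 0.05. At p below 1e-05, the limit named in the study's methods, 34 identifiers had 8 or more peaks in each stage.

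The cells were of the human embryonic stem cell line MEL1, taken through pancreatic differentiation. The study's methods give the line as MEL1 INSGFP/W, a reporter that expresses green fluorescent protein (GFP) from the insulin promoter, and name no other stem cell line, so every group carried this engineered allele as far as the methods say. In m6A-seq, RNA fragments pulled down with an m6A antibody (IP) are sequenced beside the unselected fragments (input), and a peak is a stretch with more IP than input reads. Each of 6 populations had 2 IP and 2 input libraries, 24 libraries in all, and 1 list of peaks called on its libraries together. The 4 stages, none edited at ALKBH5, were hPSC (undifferentiated cells), DE (definitive endoderm), PP (progenitors of the pancreas) and hILO (organoids resembling human islets). They formed batch 1, in which fragmented mRNA was precipitated with a SYSY antibody. Batch 2 held wild-type pancreatic progenitors (WT PP) and progenitors lacking ALKBH5 (A5-KO PP), an edited line made with CRISPR-Cpf1 against the first exon of the gene. In batch 2, total RNA was precipitated with a Millipore antibody, rRNA was removed from the input, and a different library kit was used. PP and WT PP therefore differ in RNA, antibody and kit as well as in culture, and these cannot be told apart. Values were pooled within each list, so no comparison has a replicate check and no p-value is given. Numbers in a row follow the order hPSC, DE, PP, hILO for the stages, then WT PP and A5-KO PP for batch 2. Intervals are 95% intervals and cover counting error only, and genes that share peaks are not independent.

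m6A is a methyl group placed on adenosines of mRNA by the METTL3 and METTL14 complex, mostly within the DRACH sequence context, of which GGAC is the best-known core. It is known to gather in unusually long internal exons and around stop codons, while short exons flanked by splice junctions are largely spared. ALKBH5 is an RNA demethylase that removes the mark.

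The 3 sequences below are shown because each lies in a peak that all 6 lists share, in the genes with the largest smallest peak number over the stages that carry their peaks on their own exons. Each is 150 nt of GRCh38 in the orientation of the transcript, 5′ to 3′, and capitals mark GGAC. The AHNAK stretch is chr11:62518314-62518463 on the minus strand, in exon 5 of 5. The KMT2A stretch is chr11:118505567-118505716 on the plus strand, in exon 28 of 37, and holds no GGAC. The MKI67 stretch is chr10:128104400-128104549 on the minus strand, in exon 13 of 15.
AHNAK: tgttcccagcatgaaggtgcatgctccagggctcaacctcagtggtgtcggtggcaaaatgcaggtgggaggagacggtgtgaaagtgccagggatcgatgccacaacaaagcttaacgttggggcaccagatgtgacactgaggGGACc
KMT2A: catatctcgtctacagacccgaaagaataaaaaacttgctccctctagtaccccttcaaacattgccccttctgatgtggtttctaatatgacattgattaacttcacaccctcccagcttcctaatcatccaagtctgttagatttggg
MKI67: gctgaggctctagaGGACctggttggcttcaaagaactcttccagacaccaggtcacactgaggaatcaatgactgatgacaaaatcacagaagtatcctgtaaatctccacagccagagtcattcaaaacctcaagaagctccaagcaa

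These stretches come from 3 very long exons, of 18173 nt in AHNAK, 4249 nt in KMT2A and 6845 nt in MKI67. The log2 enrichment of IP over input of the AHNAK peak, as the authors' peak caller gave it, was 1.49, 1.80, 1.62 and 1.60 over the stages, then 3.67 and 4.97 in batch 2. The KMT2A peak had 2.16, 1.86, 1.76 and 1.89, then 3.74 and 3.13, and the MKI67 peak 1.84, 1.82, 1.81 and 2.12, then 3.39 and 2.90. All 3 peaks were thus called at similar enrichment over the stages. In A5-KO PP against WT PP the AHNAK value was higher and the KMT2A and MKI67 values were lower. The lists were scaled separately, so the higher values of batch 2 are not a comparison of methylation.

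GGAC, searched on the transcript strand, was denser where peaks lay. In the carrier genes it occurred 4.33 times per kb in sites with a peak in all 4 stages, 3.90 times per kb in sites of fewer stages and 2.62 times per kb of exon outside the peaks of all 6 lists. Of 101-nt windows centred on peak midpoints, 36.7%, 39.6%, 38.4% and 36.0% held it over the stages and 37.1% and 35.0% in batch 2, against 21.4% of windows outside peaks. The coding sequence of carrier genes as a whole held 4.18 per kb, and the part that transcript region has in this difference was not tested. As a comparison class, 1147 other genes with a peak in all 4 stages and an exonic length at or above the lower quartile of the carrier genes were taken, and are called long other genes. Their values were 3.96, 3.97 and 2.61 per kb, and 34.6% to 38.6% of peak windows against 21.5% outside. The shares of peak windows with the motif thus lay in the same range in both classes. A match of these 4 letters is a description and not a methylated site.

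The lists held 29083 peaks in PP to 55219 in A5-KO PP, with 30723100 to 79822800 IP reads and 6987610 to 28464000 input reads inside peaks. ALKBH5 itself had 289 input reads in its 4 peaks in WT PP and 1 input read in its 5 peaks in A5-KO PP, while IP reads in them were 836 and 592. The markers of hPSC, PP and hILO had peaks in the lists of those names. POU5F1 and NANOG peaks lay in hPSC and DE, PDX1 and NKX6-1 peaks in PP, hILO, WT PP and A5-KO PP. INS, GCG and SST peaks lay in hILO alone of the 6 lists. Neither DE marker was found in DE alone. SOX17 peaks were found in DE, WT PP and A5-KO PP, and FOXA2 peaks in every list but hPSC.

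The members made up 1.09%, 1.15%, 1.29% and 1.15% of the identifiers with a peak over the stages, then 1.03% and 0.794%, and a larger share of peaks. Of all identifiers with a peak in a list, 4.77%, 4.12%, 3.95% and 3.33% had 8 or more in the 4 stages. The members together had 1485, 1407, 1411 and 1366 peaks over the stages, or 4.05%, 4.31%, 4.85% and 4.33% of each list. Batch 2 gave 1379 and 1501, or 3.18% and 2.72%. A carrier gene had a median of 11, 11, 11.5 and 10 peaks over the stages, then 11 and 11. Other identifiers with a peak in all 4 stages had medians of 2 to 3. No stage held the most peaks for most carrier genes. The highest number fell in hPSC for 24 of them, in PP for 20, in DE for 17 and in hILO for 14, while the rest shared it between stages. The lowest number fell in hILO for 27 carrier genes, in DE for 16, in PP for 12 and in hPSC for 11.

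The threshold cut through a continuous range. A smallest number of exactly 8 over the stages was found for 61 members, and 113 further identifiers stopped at 7. Requiring 10 or more left 81 identifiers, 15 or more left 5, and 20 or more left AHNAK alone. Just inside lay ANKRD50, an ankyrin repeat protein of endosomal recycling, with 8 peaks in each stage, 6 for WT PP and 8 for A5-KO PP. The same numbers belonged to LTB4R and LTB4R2, neighbouring leukotriene receptor genes that shared their peaks. Just outside lay CEP350, a centrosomal protein, with 15, 7, 16 and 17 peaks over the stages, then 15 and 16. CFLAR, an inhibitor of death receptor signalling, had 7, 20, 11 and 14, then 24 and 23, as did an unnamed gene inside it (ENSG00000234431).

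Not every member carried its peaks itself. The authors' lists give a peak all gene identifiers it overlaps, and the 177 members fell into 117 loci that shared peaks, 82 with 1 member and 35 with several, holding 95 members. The largest was the protocadherin alpha cluster, whose 15 identifiers (PCDHA1 to PCDHA13, PCDHAC1 and PCDHAC2) each showed 29, 17, 14 and 19 peaks over the stages, then 48 and 49 in batch 2. These genes splice separate first exons to shared last exons, and none of the 15 reached 8 peaks on its own exons in each stage. Reads of near-identical paralogs, here and in zinc finger genes, were kept at 1 alignment and may be split between copies.

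The short non-coding members were of the same kind. MIR6501, of 67 nt, lies within SON and showed its 15, 16, 11 and 13 stage peaks, with 11 for WT PP and 14 for A5-KO PP. MIR7706, also of 67 nt, lies within AKAP13 and showed 15, 16, 12 and 14, then 9 and 17. The small nucleolar RNA genes SNORD64 and SNORD108 each showed 14, 14, 12 and 18, then 16 and 17, inside the SNHG14 locus, and MIR374B showed 12, 18, 10 and 20, then 7 and 9, inside FTX. None of these 5 held a peak on its own exon by the rule of 1 gene per peak. Likewise ENSG00000285827 showed the peaks of KMT2A, and ZNF660, a zinc finger gene, had 20, 21, 19 and 15 peaks by identifier but 5, 5, 3 and 3 on its own exons.

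Of the 177 members, 33 that were no carrier gene shared peaks with one and 48 lay in 21 loci without a carrier gene. By annotated type 146 members were protein coding, 15 were lncRNA genes and the rest were small RNAs, pseudogenes and unclassified genes, and 1 identifier was not in the annotation used. Of the carrier genes 92 were protein coding. The other 4 were the lncRNA genes SNHG14, host of the Prader-Willi region small nucleolar RNAs, FTX, a regulator of X inactivation, HCG18 and TTC28-AS1, an antisense gene. SNHG14 had 15, 15, 12 and 18 own peaks in the stages, 19 for WT PP and 20 for A5-KO PP. FTX had 12, 18, 10 and 20, then 7 and 9. HCG18 had 14, 11, 10 and 9, then 12 and 14, and TTC28-AS1 11, 13, 10 and 11, then 12 and 16.

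Carrier genes were long, and unusually so in coding sequence. The longest annotated isoform had a median of 10109 nt over carrier genes (interval 8976 to 10920) and 7978.5 nt over the 176 annotated members (6438 to 8552), against 3649 nt over 10030 other identifiers with a peak in all 4 stages. The longest were DST with 24709 nt, MACF1 with 24340 nt, SNHG14 with 24124 nt, RNF213 with 21079 nt and KMT2D with 20686 nt. The exonic length of a gene over all its isoforms had a median of 13705.5 nt in carrier genes and, by construction similar, 14224 nt in long other genes. At that similar length the coding sequence had a median of 6478.5 nt in carrier genes (5880 to 7326) and 2793 nt in long other genes (2646 to 2946), and 1491 nt in all other identifiers. The largest internal exon showed the widest gap, with a median of 2119.5 nt (1611 to 2616) against 295 nt (271 to 330) and 218 nt. An internal exon of 1000 nt or more was present in 63 of 92 coding carrier genes, 68.5% (58.4% to 77.1%), in 16.5% of long other genes and in 7.62% of other identifiers.

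Most long genes were no carrier genes. Of genes with peaks on their own exons in all 4 stages, none of 1277 under 2500 nt of exonic length and none of 2365 from 2500 to 5000 nt was a carrier gene. Of 2109 genes from 5000 to 7500 nt 4 were, of 1036 from 10000 to 15000 nt 42, and of 219 at 20000 nt or more 26, which is 11.9% (8.23% to 16.8%). Over all 8524 such genes the Spearman correlation of exonic length with mean stage peak number was 0.48, and over the 96 carrier genes it was 0.52. Both are descriptions, since genes of a list share its libraries and depth.

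Peak density could be compared in batch 2, whose lists the choice did not use. Per kb of exonic length the carrier genes had a median of 0.76 peaks in WT PP (0.69 to 0.87) and 0.835 in A5-KO PP (0.71 to 0.951), and long other genes had 0.281 (0.266 to 0.301) and 0.307 (0.282 to 0.327). In the stages, where the numbers chose the genes, the median of the mean was 0.828 and 0.226. Long other genes hold no member by construction. The input reads per peak moved with the class, with a median of 174 and 125 in carrier genes and 93 and 53 in long other genes, and their part in the density was not tested. Across carrier genes the stage mean ran from 0.122 per kb in SNHG14 to 1.82 per kb. By identifier the least dense members were SNHG14, SPG7, a mitochondrial protease, KAT6B, a histone acetyltransferase, KMT2C and MACF1, all with very long annotated exonic sequence. The 5 densest were the small RNA genes named above, of 67 to 72 nt.

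The peaks of these genes lay mainly in coding sequence. With the 4 stages pooled, 3740 of 4905 member peaks placed on a coding isoform, 76.2% (75.04% to 77.4%), had their midpoint in the coding sequence (CDS), against 53.2% (52.9% to 53.5%) of other peaks and 61.3% (60.5% to 62.0%) of peaks in long other genes. The 3′ untranslated region (3UTR) held 21.4% of member peaks, 34.8% of peaks in long other genes and 40.6% of other peaks, and the 5UTR 2.34%, 3.90% and 6.25%. Within 200 nt of the stop codon lay 7.16% (6.47% to 7.91%) of member peaks, 14.5% of peaks in long other genes and 21.3% (21.1% to 21.6%) of other peaks. The CDS share was 76.3%, 75.6%, 77.7% and 75.3% over the stages. In batch 2 it was 69.8% (67.1% to 72.4%) for WT PP and 72.3% (69.8% to 74.7%) for A5-KO PP, against 49.4% and 56.8% of other peaks. In each of the 6 lists the CDS share of member peaks was above that of other peaks, with intervals that did not overlap.

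Long internal exons took much of this. An internal exon of 400 nt or more held 39.7% of member peaks (38.4% to 41.1%) and 45.2% of carrier peaks (43.7% to 46.8%), 22.0% of peaks in long other genes and 13.9% of all other peaks. In carrier genes the CDS of such exons made up 30.5% of the isoform length, and in long other genes 7.72%. Per kb of that sequence carrier genes had 1.62, 1.48, 1.68 and 1.34 peaks over the stages, then 1.37 and 1.63. Long other genes had 1.28, 1.07, 1.17 and 0.982, then 1.46 and 1.49. In batch 2 carrier genes were thus lower than long other genes per kb of long internal exon in WT PP and higher in A5-KO PP, while in the stages that chose them they were higher throughout.

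The rest of the transcript was denser in carrier genes in batch 2 as well. The CDS outside long internal exons had 0.776 peaks per kb for WT PP and 0.896 for A5-KO PP, against 0.487 and 0.588 in long other genes. The 3UTR had 0.767 and 0.729 against 0.359 and 0.333. In the stages the 3UTR of carrier genes had 0.605 to 0.705 peaks per kb and coding sequence outside long internal exons 0.98 to 1.04.

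**Figure D1:**
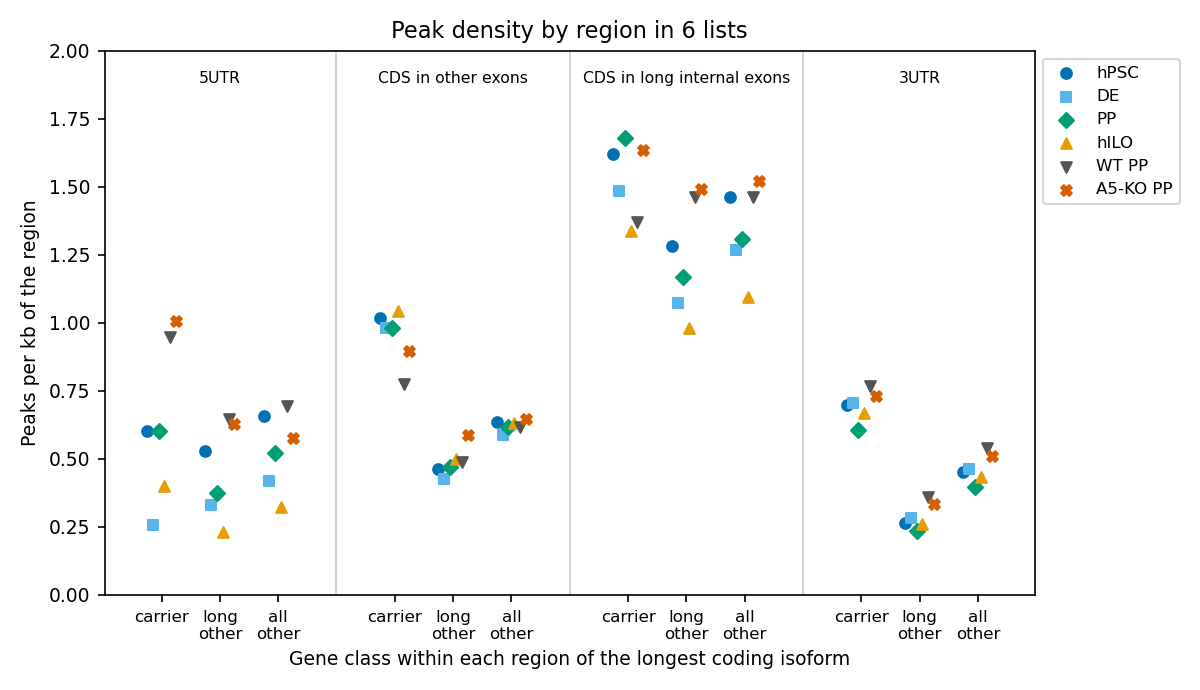
Peaks per kb (y axis) in each region of the longest coding isoform for carrier genes, long other genes and all other genes (x axis), 1 point per list and colours and shapes by list. In long internal exons the WT PP and A5-KO PP points of carrier genes (1.37 and 1.63) and long other genes (1.46 and 1.49) lie side by side, and in the 3UTR those of carrier genes (0.767 and 0.729) lie above those of long other genes (0.359 and 0.333).

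Single genes show how far 1 exon can carry the count. In 59 of the 63 carrier genes with an internal exon of 1000 nt or more, that exon held a larger share of stage peaks (median 41.9%) than of isoform length (median 25.4%). TCF20, a transcriptional coregulator, had 37 of its 38 placed stage peaks in exon 2 of 5691 nt. PRDM2, a PR-domain zinc finger protein, had 37 of 41 in exon 8 of 4414 nt. SON, a splicing scaffold of nuclear speckles, had 37 of 48 in exon 3 of 5916 nt, and AHDC1, a DNA-binding protein, had 31 of 39 in exon 6 of 4929 nt. TCF20 and AHDC1 were chosen after their values were seen. AHNAK, a giant membrane-associated scaffold, held all 92 in its coding sequence, which lies almost whole in the last exon of 18173 nt.

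A minority of carrier genes carried their peaks outside coding sequence. The CDS share exceeded 90% in 35 of 92 coding carrier genes and was under 50% in 10. TBC1D16, a Rab GTPase regulator, had 49 of 54 stage peaks in the 3UTR and 5 in the CDS, and GDF11, a TGF-beta family ligand, had 39 and 6 of 45. POLR1A, the largest subunit of RNA polymerase I, had 33 and 4 of 37. These genes were chosen after their values were seen. ZKSCAN1, a zinc finger factor, had 31 and 12 of 44 and KLHDC4, with a kelch domain, had 20 and 6 of 26 placed peaks. These 2 were named by rule. TUG1, known as a lncRNA, has a short annotated coding sequence, and 1 of its 40 peaks lay in it.

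**Figure D2:**
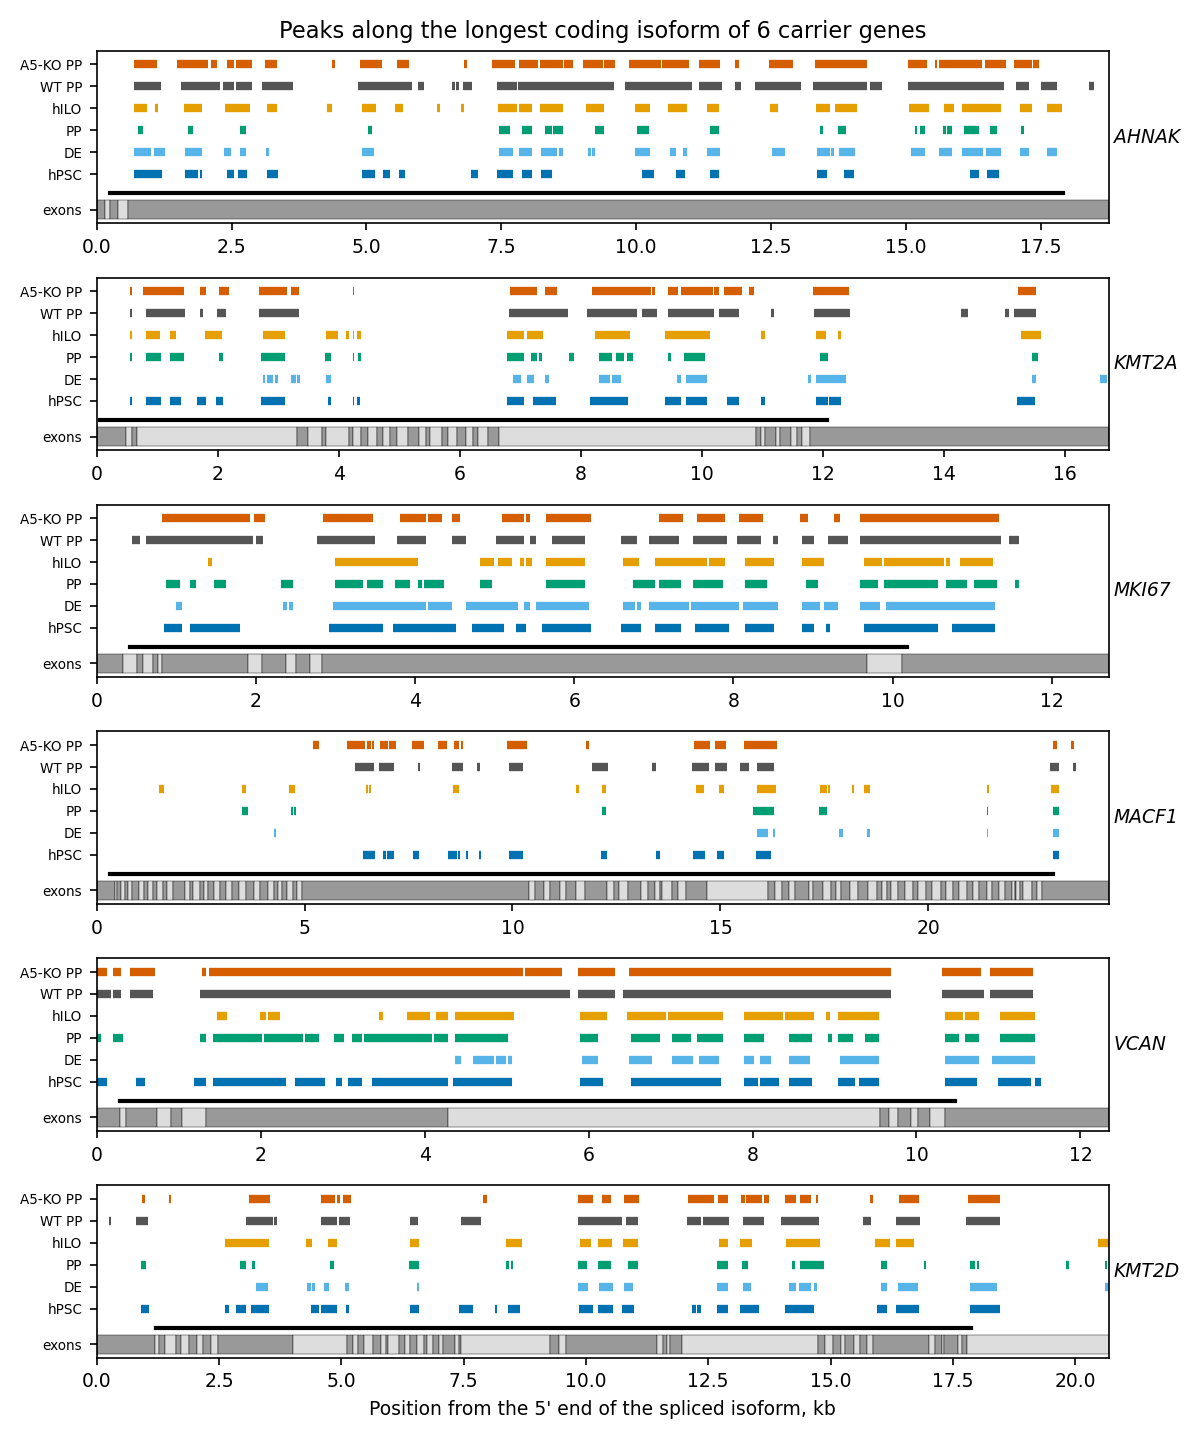
Exonic extent of each peak along the longest coding isoform (x axis, kb from its 5′ end) of AHNAK, KMT2A, MKI67, MACF1, VCAN and KMT2D, 1 row per list, with exons as alternating grey boxes and the coding sequence as a black line. Peaks recur at the same places of the long exons in most lists, WT PP bars are often wider, and MACF1 shows peaks over its longest exon in hPSC, WT PP and A5-KO PP and few or none in DE and PP.

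Many of the peak positions recurred from stage to stage. Peaks of the 4 stages on the exons of a gene were merged to sites where they overlapped, which gave 1376 sites in the carrier genes, a median of 13.5 per gene. Of these, 595 or 43.2% (40.6% to 45.9%) held a peak in all 4 stages, 27.6% in 1 stage only. In long other genes 27.6% (26.6% to 28.7%) of 7188 sites and in all other genes 34.8% of 33512 sites held a peak in all 4. Each of the 96 carrier genes had at least 1 such site, with a median of 6, and 19 had 8 or more. Having 8 peaks in every stage makes recurring sites more likely, so these shares describe the choice in part. Merging can also chain neighbouring peaks, as in APC, where 1 peak over many exons made a site of 10825 nt. By bases, 34.9% of the exonic sequence under any stage peak in carrier genes lay under a peak in all 4 stages, against 23.5% in long other genes.

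Batch 2 tested the recurrence in lists not used for the choice. Of the 595 sites of all 4 stages, 86.4% (83.4% to 88.9%) overlapped a WT PP peak, 89.9% (87.2% to 92.1%) an A5-KO PP peak and 84.0% both. In long other genes the shares were 80.6% (78.8% to 82.2%), 80.7% (78.9% to 82.4%) and 73.8%. Sites of 1 stage were overlapped less often, namely 47.9% (42.9% to 52.9%) by WT PP and 38.4% (33.7% to 43.4%) by A5-KO PP, and in long other genes 34.6% and 31.2%. Site width moved with this, with a median of 425 nt for sites of all 4 stages and 75 nt for sites of 1 stage in carrier genes, and 400 and 100 nt in long other genes. The part of width in the overlap was not tested. Conversely, 252 of 1093 WT PP peaks on carrier genes, 23.1%, and 241 of 1213 A5-KO PP peaks, 19.9%, touched no site of any stage. No such share is given here for other genes, so it is not read as a trait of carrier genes.

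The members were spread over several groups by function. The groups were 12 lists of genes written from general knowledge of large genes, with earlier results of these data known. They held 62 of the 177 members and 60 carrier genes, while 36 carrier genes were in none. Of 98 listed histone methyltransferases and chromatin regulators, 93 had a peak in all 4 stages and 16 were members, which is 17.2%, where 1.73% of all identifiers with a peak in all 4 stages were. The members of each list below are given as a share of its genes with a peak in all 4 stages, beside that same 1.73%. Since the peak numbers chose the members, these shares are a description. The lists favour large genes while the 1.73% covers genes of all sizes, so function and size cannot be told apart in these shares. KMT2A, which methylates histone H3 lysine 4 at developmental genes, had 21, 18, 22 and 18 peaks over the stages, 16 for WT PP and 18 for A5-KO PP. KMT2D, its relative at enhancers, had 22, 18, 20 and 14, then 17 and 21, and KMT2C 18, 11, 15 and 15, then 16 and 17. BPTF, a subunit of the NURF remodelling complex, had 17, 18, 13 and 15, then 18 and 14. All 4 kept 11 or more peaks in each of the 6 lists. KAT6B had fewer, with 9, 8, 10 and 8, then 11 and 13.

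The list of Mediator and transcription coactivators gave 5 members of 29, also 17.2%, not all of which are known as coactivators. ANKRD11, which binds histone deacetylases, had 16, 19, 22 and 13 stage peaks, then 19 for WT PP and 19 for A5-KO PP. PRRC2C, an RNA-binding protein of stress granules, had 9, 14, 11 and 13, then 9 and 10. ANKRD12, a relative of ANKRD11, had 12, 11, 10 and 10, then 11 and 12. ANKRD11 was at or above the other two in all 6 lists, level with PRRC2C in hILO.

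Among 74 zinc finger and homeobox factors 9 were members, 12.2%. PRDM2 had 10, 13, 13 and 12 stage peaks, then 10 and 12, and ZKSCAN1 had 10, 10, 11 and 13, then 9 and 11. ZNF292 had 14, 13, 13 and 8, then 5 for WT PP and 6 for A5-KO PP, below each of its stage values. Its exonic length under peaks was larger in batch 2, at 7529 and 7029 nt against 3775 to 5550 nt in the stages. Of the 9 members 5 reached 8 peaks in WT PP and 6 did in A5-KO PP. Over all members 77.4% and 89.3% did, and over all identifiers with a peak in the list 6.60% and 6.95%.

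The cytoskeletal list had 8 members of 47, 17.0%, a share like that of the chromatin regulators and the coactivator list. AHNAK had 20, 27, 20 and 25 stage peaks, 22 for WT PP and 28 for A5-KO PP. MACF1 and DST, spectraplakins that link actin to microtubules, varied more between stages than the 4 chromatin genes above. DST had 30, 10, 21 and 41, then 34 and 40, the widest range of any member. MACF1 had 22, 15, 14 and 28, then 19 and 24. The peak number of their longest internal exons varied too. Exon 37 of MACF1, of 5451 nt, held 9, 0, 0 and 3 peaks over the stages, then 6 and 11. Exon 40 of DST, of 5508 nt, held 8, 1, 4 and 7, then 8 and 13. In both genes this exon held fewer peaks in DE and PP than in hPSC, but it did not hold its most peaks in hILO, the stage with the highest number for the gene. The exon level splicing and expression of either gene were not tested.

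Nuclear scaffolds and mitotic genes were present with several members each. Of 35 nuclear speckle and splicing genes 4 were members, 11.4%. SPEN, a corepressor with RNA-binding domains, had 19, 19, 13 and 18 stage peaks, then 14 and 13. SRRM2, a core speckle protein, had 11, 11, 16 and 20, then 9 and 11, and SON had 15, 16, 11 and 13, then 11 and 14. SRRM2 was highest in hILO and SPEN and SON were lower in PP than in the other stages. Of 45 mitotic genes 5 were members, 11.1%. MKI67, the Ki-67 proliferation antigen that coats mitotic chromosomes, had 15, 17, 21 and 16, then 18 and 15. CENPF, a kinetochore protein, had 17, 15, 19 and 14, then 13 and 20, and AKAP9, a centrosomal and Golgi scaffold, had 14, 16, 16 and 15, then 14 and 11. Both MKI67 and CENPF had their highest stage number in PP.

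Membrane traffic and surface genes followed. The nuclear pore, Golgi and membrane traffic list had 6 members of 54, 11.1%. GOLGB1, the Golgi tether giantin, had 15, 12, 12 and 10 stage peaks, then 10 and 15. AKAP13, which anchors protein kinase A, had 15, 16, 12 and 14, then 9 and 17. RANBP2, a nucleoporin with SUMO ligase activity that is also in the ubiquitin list, had 9, 16, 11 and 11, then 7 and 10. MIA3 and SEC16A, organisers of export from the endoplasmic reticulum, and the Golgi tether GOLGA4 were the other 3. More peaks in A5-KO PP than in WT PP were found for 5 of the 6, and for 36.8% of all identifiers with a peak in both lists. GOLGA4, named after its values were seen, went from 9 to 8. The surface list had 2 members of 56, 3.57%, the giant cadherins FAT1 and DCHS1. FAT1 had 18, 9, 19 and 18, then 16 and 20, with its low value in DE. DCHS1 had 16, 13, 11 and 8, then 10 and 17, with its highest stage number in hPSC and its lowest in hILO.

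Signalling genes had 4 members of 101, 3.96%, among them APC, the scaffold of the beta-catenin destruction complex, with 11, 13, 10 and 8 stage peaks, then 14 and 15. ANKHD1, a cofactor of Hippo signalling, had 10, 11, 12 and 12, then 13 and 16, and AFDN, an adherens junction adaptor, 8, 11, 10 and 12, then 8 and 9. The ubiquitin list had 2 members of 37, 5.41%, of which RNF213, a giant ubiquitin ligase, had 17, 13, 14 and 13, then 25 and 24, above all its stage values in batch 2. RNA silencing and translation control had 1 of 48, 2.08%, the microRNA effector TNRC6C, with 9, 14, 9 and 10, then 13 and 12.

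Batch 2 gave a check of the peak numbers in cells, libraries and antibody not used for the choice. In WT PP, 137 of 177 members, 77.4% (70.7% to 82.9%), again had 8 or more peaks, where 6.60% of identifiers with a peak did. In A5-KO PP the number was 158, 89.3% (83.8% to 93.0%), where 6.95% did. Carrier genes, counted on their own exons, gave 77 of 96 in WT PP, 80.2% (71.1% to 86.9%), and 82 of 96 in A5-KO PP, 85.4% (77.0% to 91.1%), with 74 in both and 11 in neither. As a closer comparison, 366 identifiers had 8 or more peaks in PP but not in every other stage, and 52.5% (47.3% to 57.5%) and 58.2% (53.1% to 63.1%) of them reached 8 in WT PP and A5-KO PP. The members thus reached 8 more often in batch 2 than identifiers with 8 or more in PP that fell short in at least 1 other stage. Identifiers that share peaks are counted more than once here, as the 15 of the protocadherin alpha cluster, so these intervals are too narrow. Members and these identifiers were not matched for their peak number in PP. With 20 or more input reads required of every peak, the rule found 118 members, of which 72.9% reached 8 in WT PP against 66.1% in A5-KO PP, so the order of these 2 lists turned.

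The members with the fewest peaks in WT PP were of different kinds. ALPK3, an alpha kinase of muscle, had 9, 9, 8 and 8 stage peaks, 3 for WT PP and 10 for A5-KO PP. RLF, a zinc finger protein, had 12, 8, 9 and 9, then 3 and 6. Their WT PP peaks were few but wide, covering 5250 nt of ALPK3 exons against 2300 to 3700 nt in the stages, and 4675 nt of RLF against 1625 to 2950 nt. HNRNPU, an abundant nuclear RNA-binding protein, had 10, 11, 10 and 15, then 4 and 4, and its covered length was lower too, at 900 nt for WT PP and 725 nt for A5-KO PP against 1675 to 3000 nt in the stages. KLHDC4, a kelch-domain protein, had 11, 12, 12 and 9, then 3 and 7, with 1600 and 1950 nt covered. PDPK2P, a pseudogene of the kinase PDPK1, had 9, 9, 9 and 8 and no peak in either list of batch 2.

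Peak number and covered length did not move together. The median exonic width of a carrier peak was 225, 175, 175 and 225 nt over the stages, then 275 and 225 nt. The median length under peaks per carrier gene was 3255.5, 2700, 2587.5 and 3275.5 nt, then 4550 and 4062.5 nt. Against PP, 87 of 96 carrier genes had more covered length in WT PP, 90.6% (83.1% to 94.99%), where 78.6% of genes with peaks in both did, and 45 of those 87 had fewer peaks. VCAN, a matrix proteoglycan shown in the map of peaks along isoforms and chosen after its values were seen, went from 24 peaks over 6425 nt in PP to 11 peaks over 10450 nt in WT PP. Its A5-KO PP values were 12 peaks over 10000 nt.

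Between A5-KO PP and WT PP the members had slightly more peaks. More peaks were found in A5-KO PP for 114 of 177 members, 64.4% (57.1% to 71.1%), against 36.8% of identifiers with a peak in both lists, and fewer for 45, 25.4% (19.6% to 32.3%), against 31.5%, with a median difference of 1 peak. Many identifiers in that background have 1 or 2 peaks and equal numbers. Of the 366 identifiers with 8 or more in PP but not in every stage, 152 had more and 164 fewer, with a median difference of 0. Among 987 non-members chosen by 8 or more peaks in WT PP itself, 225 had more and 623 fewer, which the choice by WT PP favours. Within the function lists of 4 or more members, more against fewer stood at 10 and 6 for chromatin regulators, 7 and 1 for zinc finger factors, 5 and 2 for cytoskeletal genes, 5 and 1 for membrane traffic, 4 and 0 for signalling, 3 and 1 for speckle and splicing genes, 2 and 2 for coactivators and 1 and 3 for mitotic genes.

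The largest differences upward were in AKAP13, with its embedded MIR7706, from 9 peaks in WT PP to 17, and in ERC1, a scaffold of vesicle release sites, from 13 to 21, beside 12, 16, 15 and 11 in the stages. The largest differences downward were in MICAL3, an actin-oxidising enzyme, from 17 to 8 beside 13, 10, 12 and 10 in the stages, shared with ENSG00000093100, and in CEP250, a centriole linker, from 15 to 8 beside 8, 11, 15 and 9. Both batch 2 values of AKAP13 and of MICAL3 lay outside their stage ranges, on opposite sides, and those of CEP250 lay at the ends of its range. AKAP13 covered 4525 nt for WT PP and 4400 nt for A5-KO PP, so its higher number spanned less sequence, while ERC1 covered 4575 and 4987 nt, so its higher number spanned more. MICAL3 covered 2750 and 2100 nt and CEP250 3977 and 2050 nt, both less along with fewer peaks.

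**Figure D3:**
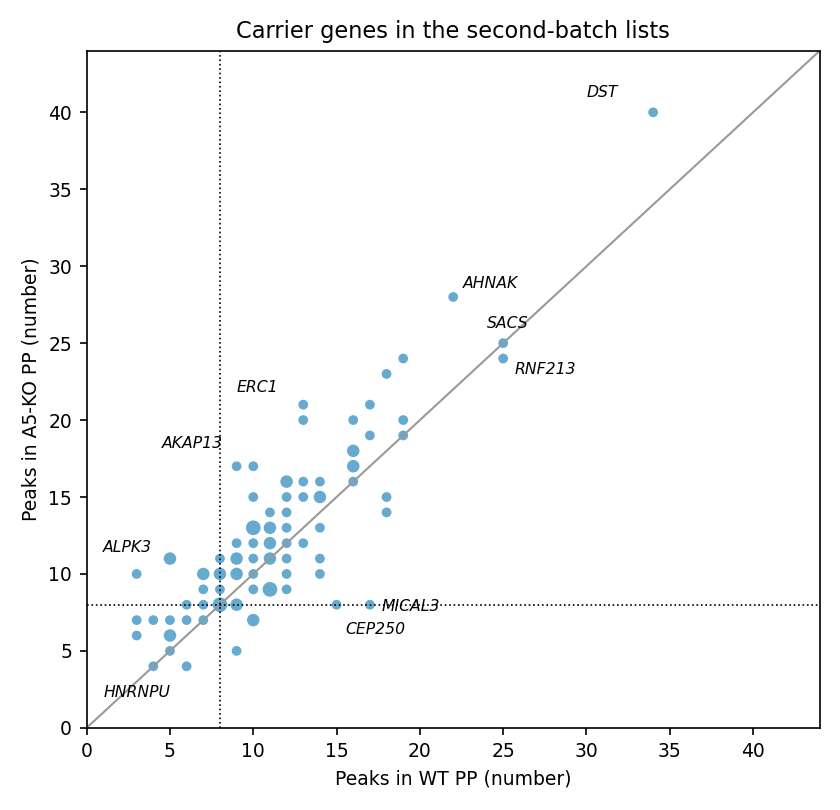
Number of peaks in A5-KO PP (y axis) against WT PP (x axis) for the 96 carrier genes, with point area growing with the number of genes at that position, a grey line of equal numbers and dotted lines at 8. More genes lie above the line (61) than below it (22), and DST is at the upper end with 34 and 40 peaks.

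The excess of peaks in A5-KO PP was smaller among peaks with more input reads. Peaks with under 20 input reads made up 25.6% of carrier peaks in A5-KO PP and 18.7% in WT PP, against 0.799% to 11.7% in the stages. With 20 or more input reads required, carrier peaks numbered 889 for WT PP and 902 for A5-KO PP, with 49 genes higher and 40 lower, and with 50 or more the genes stood at 42 and 41. Shares over all genes at these minima are not given here, so the counts describe carrier genes only. Over the 118 members that the rule found with 20 or more input reads, the median difference was -1. Covered exonic length went the other way from the number. It was smaller in A5-KO PP in 75 of 96 carrier genes, 78.1% (68.9% to 85.2%), where 56.6% of genes with peaks in both lists were smaller, and larger in 18, with a median difference of -462.5 nt (-625 to -300). In 45 carrier genes A5-KO PP had more peaks over less sequence, and the share of all genes with both changes is not given here. The part that input depth has in this was not tested.

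The enrichment of shared peaks did not move in 1 direction. Peak pairs in which over 50% of the A5-KO PP peak was covered, with 50 or more input reads in both lists, numbered 565 in members. Their median log2 enrichment was 3.77 for WT PP and 3.82 for A5-KO PP, and the median of the paired differences was -0.025 (-0.11 to 0.06), beside 0.0038 over all 8995 shared pairs. It was higher by 1 or more in 127 member pairs, 22.5% (19.2% to 26.1%), against 22.7% of all pairs, and lower by 1 or more in 120, 21.2% (18.1% to 24.8%), against 21.3%. Both shares are those of the background. AHNAK had 26 such pairs, 16 of them higher in A5-KO PP, with a median difference of 0.15 on the log2 scale. AKAP13 had 8 pairs, 2 of them higher, with a median difference of -0.85.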

How the data were processed

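Libraries were grouped by the labels into 12 groups, IP and input of 6 populations with 2 libraries each. The authors cleaned reads with fastp and mapped them with HISAT2 to GRCh38 at 1 alignment each. Peaks were called by exomePeak2. The 6 deposited lists give, per peak, pooled read counts of IP and input, a log2 enrichment and p-values. Whether counts are sums or means was not stated. The highest adjusted p was 0.05 and the lowest log2 enrichment 0.585, so the lists are wider than the p below 1e-05 of the study's methods.

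Peaks were counted per Ensembl identifier. Spans were reduced to GENCODE 44 exons, and each peak was also given to 1 identifier on its strand. That was the identifier with most ends of the peak on its exons. Ties went to a gene with a symbol, then to one that is no readthrough gene, then to a coding gene. Exonic bases under the peak were compared after that. Midpoints were placed on the longest coding isoform. Shares have Wilson 95% intervals and medians order-statistic intervals. Python 3.11.15, pandas 2.3.3, scipy 1.17.1 and pysam 0.24.0 were used, and the code was checked on simulated data. Genes were named by rule: highest, lowest, longest, shortest, densest and sparsest members, those of widest and narrowest range, largest batch 2 differences, leading members of 12 lists and those at the threshold. The result of the DNA replication and repair list is not reported here. Members and lists were chosen with earlier results of these data known. Thresholds, isoform measure, overlap and merging were varied, and the count on own exons was added after the data were seen.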

Additional observations from a re-analysis of the deposited data

How the results depend on the processing

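The number of members, 177, fell to 34 with p below 1e-05, to 97 with peaks under 100 nt apart merged, to 81 at 10 or more peaks, to 73 without peaks of several identifiers and to 96 on own exons, and rose to 537 at 6 or more. The median transcript length was 10428.5 nt with p below 1e-05, 6048.5 nt at 6 or more peaks, 10352.5 nt as exon union, 5134.5 nt as coding sequence and 10109 nt in carrier genes. Peaks per kb had a median of 1.11 over the members, 0.859 with p below 1e-05, 0.945 with merging and 0.828 in carrier genes. The CDS share was 85.1% with p below 1e-05, 78.7% with 20 or more input reads, 72.6% at 6 or more and 78.9% at 10 or more peaks, 79.6% by any overlap and 79.6% in carrier genes. The share in long internal exons was 55.8% with p below 1e-05, 42.2% with 20 or more input reads, 32.8% for exons of 1000 nt or more and 45.2% in carrier genes. Sites of all 4 stages were 41.4% over the members, 37.5% with p below 1e-05, 38.8% with 20 or more input reads and 38.3% by midpoints within 100 nt. Members with 8 or more peaks in WT PP were 67.6% with p below 1e-05. In A5-KO PP they were 67.6% with p below 1e-05, 66.1% with 20 or more input reads and 79.4% with merging. WT PP had 72.9% with 20 or more input reads, which turns the order of the 2 lists. Where the member rule was varied, the limit in batch 2 moved with it. Of members by 6 or more peaks, 87.5% had 6 or more in WT PP. Of members by 10 or more peaks, 88.9% had 10 or more there. The median difference in peaks turned to -1 with 20 or more input reads, and that in log2 enrichment to 0.0092 with over 50% of both peaks and 0.11 with no minimum of input reads. The cause was not tested.

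No paired analysis was possible because each list pools the libraries of a population, and leaving out a library was not run for the same reason. The spread between cultures is therefore unknown. Batch 1 and batch 2 differ in RNA, antibody and kit, which cannot be told apart from the cells. Input reads per peak were fewest in A5-KO PP among the lists of batch 2.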
